A study of Mus musculus with 97 samples.

Results

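The 44 genes described here are the members of cytochrome P450 families 2, 3 and 4 in a table of 20457 genes from the mouse colon. Every gene whose symbol was Cyp, a 2, 3 or 4, a subfamily letter or letters and a number was taken, whatever its level. The families themselves were chosen with earlier results of these data known. Family 2 had 29 members, family 3 had 1 and family 4 had 14. The whole colon of wild-type C57BL6/J mice aged 8 to 12 weeks was flash frozen and its poly(A) RNA sequenced, giving 97 libraries in 18 groups. Mice received ampicillin, metronidazole, neomycin or vancomycin (2.5 mg in 100 µl of phosphate buffered saline, PBS), a mix of all 4, or PBS alone as the control. The routes were oral gavage (PO), injection into the peritoneal cavity (IP) and intravenous injection (IV), with 2 doses daily over 3 days, 1 more on day 4, and tissue collection 4 hours later. There were 4 libraries in PBS-IP, Vancomycin-IP, Metronidazole-IV and Metronidazole-IP, 5 in Vancomycin-IV, PBS-IV and Neomycin-IV, and 6 in every other group. How much of each antibiotic the mix held is not given in the sources used here.

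Cytochrome P450 enzymes are heme proteins of the endoplasmic reticulum that put an oxygen atom into fatty acids, eicosanoids, steroids, vitamins and drugs, using electrons passed on by the reductase Por. Family 2 holds enzymes that oxidise arachidonate as well as many foreign compounds, family 3 the broad drug oxidisers of liver and gut, and family 4 the omega-hydroxylases of fatty acids and leukotrienes. In the intestine they are made mainly by epithelial cells, and their genes lie in tandem clusters of close relatives whose members often differ in the tissue or stretch of gut where they are used.

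The promoters of 6 genes of the Cyp2c cluster are shown because of what this cluster holds. It has the member with the highest level, Cyp2c55, and several of the members that differed between antibiotic and PBS groups. It also has members that ran in opposite directions with the level of posterior Hox genes. They are RefSeq sequences of the assembly GRCm38.p6 that span 300 bases around each gene's start, written 5′ to 3′ on the gene's own strand, and capitals mark CAAAGTCCA, a motif of the type bound by the epithelial factor Hnf4a.
Cyp2c55 (chr19:39006769-39007068, plus strand): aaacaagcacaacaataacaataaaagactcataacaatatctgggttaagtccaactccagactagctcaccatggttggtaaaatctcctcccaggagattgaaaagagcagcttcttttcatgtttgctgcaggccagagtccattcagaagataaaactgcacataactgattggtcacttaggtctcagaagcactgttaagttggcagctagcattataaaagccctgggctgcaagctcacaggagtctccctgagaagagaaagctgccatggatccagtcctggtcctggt
Cyp2c65 (chr19:39060756-39061055, plus strand): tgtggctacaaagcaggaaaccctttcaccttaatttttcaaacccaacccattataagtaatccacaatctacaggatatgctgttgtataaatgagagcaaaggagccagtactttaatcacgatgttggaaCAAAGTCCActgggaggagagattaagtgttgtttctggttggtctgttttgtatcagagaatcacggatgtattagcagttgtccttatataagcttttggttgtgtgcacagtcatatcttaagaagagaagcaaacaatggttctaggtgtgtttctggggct
Cyp2c67 (chr19:39648993-39649292, minus strand): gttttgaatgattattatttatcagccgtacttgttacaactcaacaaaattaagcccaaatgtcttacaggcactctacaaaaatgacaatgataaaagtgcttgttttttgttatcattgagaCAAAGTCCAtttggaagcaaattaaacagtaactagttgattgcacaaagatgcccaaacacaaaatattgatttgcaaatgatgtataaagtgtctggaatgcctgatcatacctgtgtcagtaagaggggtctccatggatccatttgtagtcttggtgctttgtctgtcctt
Cyp2c68 (chr19:39741052-39741351, minus strand): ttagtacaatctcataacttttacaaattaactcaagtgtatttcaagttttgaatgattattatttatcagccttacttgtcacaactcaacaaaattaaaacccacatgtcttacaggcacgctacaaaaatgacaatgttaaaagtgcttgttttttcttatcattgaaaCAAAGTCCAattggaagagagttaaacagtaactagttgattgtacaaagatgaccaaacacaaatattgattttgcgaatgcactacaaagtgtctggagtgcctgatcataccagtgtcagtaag
Cyp2c40 (chr19:39812765-39813064, minus strand): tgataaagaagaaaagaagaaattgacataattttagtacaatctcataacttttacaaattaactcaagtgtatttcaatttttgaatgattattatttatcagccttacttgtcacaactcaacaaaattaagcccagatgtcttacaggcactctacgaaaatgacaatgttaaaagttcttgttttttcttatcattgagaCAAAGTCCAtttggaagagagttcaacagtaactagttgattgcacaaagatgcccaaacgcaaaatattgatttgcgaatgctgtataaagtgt
Cyp2c69 (chr19:39886720-39887019, minus strand): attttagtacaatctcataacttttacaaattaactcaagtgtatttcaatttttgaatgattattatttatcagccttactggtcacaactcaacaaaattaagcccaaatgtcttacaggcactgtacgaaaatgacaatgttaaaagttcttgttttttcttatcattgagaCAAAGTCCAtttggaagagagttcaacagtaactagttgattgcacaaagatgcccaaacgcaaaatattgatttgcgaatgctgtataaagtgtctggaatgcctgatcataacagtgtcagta
Of the 44 members 34 had a promoter entry, and 5 of those 34 held CAAAGTCCA on either strand, against 0.477% of all 27025 promoters of the same length. The 5 were Cyp2c65, Cyp2c67, Cyp2c68, Cyp2c40 and Cyp2c69, and Cyp2c55 had none in this window. The last of these are close copies of each other, so the matches are not separate observations. In end-to-end alignments of the 300-base windows, Cyp2c68 and Cyp2c69 matched at 91.1% of positions and Cyp2c40 and Cyp2c69 at 80.9%. Gaps count as differences there, and the windows begin at different points, so these values understate the likeness of the stretches they share. Cyp2c55 and Cyp2c65, which come next to each other among the members, matched at 53.2% of positions in such an alignment. Cyp2c55 and Cyp2c67 matched at 51.3%. A DR4 motif of the type used by Nr1i2 and Nr1i3 (AGTTCA repeated after a gap of 4 bases) was in 0 of the 34 and in 0.0148% of all promoters, and a D-box of the type used by Dbp and Tef (TTATGNAA) in 0 of 34 and 3.52%. TTTATNG, a motif of the posterior Hox and Cdx type, was in 2 of 34 and 11.3%, and the Hnf1 type motif (GTTAAT, any base, then ATT) in 1 of 34 and 0.437%; both strands were searched for each, and a match in letters is no evidence of binding.

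Values are TPM, a transcript's share of all transcripts in its library, which the authors scaled to transcript length, so levels can be set side by side between genes. Family 2 had a summed mean of 1441 TPM, family 4 of 458 TPM and family 3 of 181 TPM. The members together took between 252 and 6782 TPM in a library, with a median of 1772. Cyp2c55 alone made up 31.3% of the summed member TPM and the 4 highest members 62.3%. In all, 20 members had a mean of 10 TPM or more and 29 of 1 TPM or more, and 0 were listed at 0 in every library. A gene was tested if 4 or more libraries reached 1 TPM, which 34 members did. The 10 below that filter were Cyp2ab1, Cyp2d11, Cyp2d40, Cyp2j8, Cyp2t4, Cyp4a10, Cyp4a31, Cyp4f15, Cyp4f37 and Cyp4f39, with means from 0.0413 to 0.441 TPM. Both Cyp4a members, fatty acid omega-hydroxylases that follow Ppara in liver and kidney, were among them.

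Cyp2c55, which oxidises arachidonate and is inducible in mouse liver through Nr1i2 and Nr1i3, ran from 2.95 to 4817 TPM with a median of 233. Cyp2d34 followed with 12.9 to 842 TPM and a median of 219. Cyp4f14, a leukotriene B4 and vitamin E omega-hydroxylase, ran from 4.96 to 792 TPM (median 147), and Cyp3a13, the Cyp3a enzyme of mouse intestine, from 7.05 to 841 (median 162). These 4 were above 1 TPM in every library, yet each differed by more than 10 times between its lowest and highest library. A steadier set had narrower ranges, though Cyp2s1, Cyp4f16 and Cyp2j6 in it also differed by more than 10 times. It held the epithelial enzyme Cyp2s1 (8.70 to 233.6 TPM), Cyp4f16 (18.3 to 221), Cyp4f13 (20.5 to 152) and Cyp2j6 (9.64 to 116). The rest of the set were Cyp2d22, the mouse counterpart of human CYP2D6 (15.9 to 121), Cyp4v3 (5.28 to 48.5) and Cyp2u1 (4.56 to 25.8). Others were near 0 in some libraries and high in others. Cyp2c65, an arachidonate oxidiser, had a median of 9.08 TPM and a maximum of 470, and Cyp4b1, an enzyme of lung and kidney that oxidises fatty acids and plant toxins, a median of 4.66 and a maximum of 484. Cyp2c68 had a median of 8.77 and a maximum of 160, Cyp2d12 22.9 and 290.

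**Figure D1:**
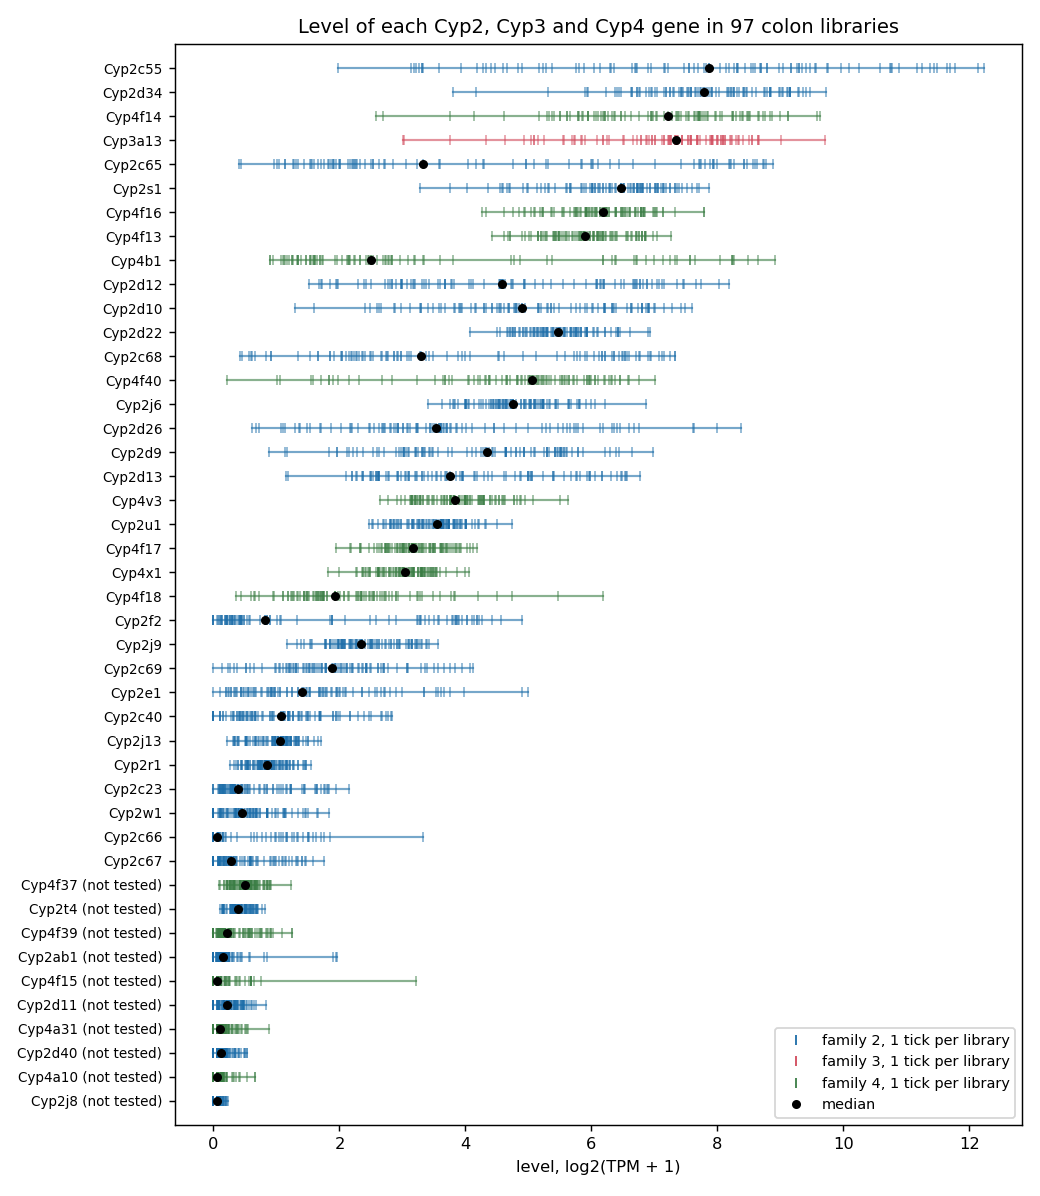
Levels of the 44 members as log2(TPM + 1), with 1 tick for each of 97 libraries, a black dot at the median and colour by family. Cyp2c55 reaches 4817 TPM, whereas Cyp2c65, Cyp4b1 and Cyp2c68 have medians under 10 TPM and maxima from 160 to 484.

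The remaining members with a mean of 10 TPM or more were Cyp2d10 (mean 50.1 TPM), Cyp4f40 (36.7), Cyp2d26 (29.8), the male-liver testosterone hydroxylase Cyp2d9 (25.7) and Cyp2d13 (25.4), which RefSeq annotates as a transcribed pseudogene. Low but tested members included the naphthalene-activating enzyme of lung club cells, Cyp2f2 (0 to 28.9 TPM), the neutrophil leukotriene B4 hydroxylase Cyp4f18 (0.274 to 71.6), the ethanol oxidiser Cyp2e1 (0 to 30.8) and the vitamin D hydroxylase Cyp2r1 (0.205 to 1.92). Near-identical copies limit some of these levels, judged by 75-base stretches of GENCODE transcripts, the length of the reads. Of these stretches 45.9% of Cyp2c40, 42.6% of Cyp2c69, 36.0% of Cyp2c67, 28.5% of Cyp2c68 and 22.3% of Cyp2d10 also occur in another gene. For these genes the split of reads between copies is uncertain. None of the stretches of Cyp2c55, Cyp3a13, Cyp2f2, Cyp2c23 or Cyp2w1 were shared in that sense. Cyp2d13 had no transcript entry and was left out of this check.

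The depth of the libraries is unknown, because TPM keep no record of it, and a library held 18247 to 19884 genes above 0. The labels do not say which libraries came from separate mice, and every p-value below therefore reflects variation among libraries that may be technical in part. Smooth muscle markers summed to between 4389 and 89924 TPM and epithelial markers to between 679 and 16922, so libraries differed in the tissue layers they held. Fewer cells of a type and less RNA per cell cannot be told apart in such bulk samples. Of 10 hepatocyte markers 7 were in the table and summed to 7.65 to 117 TPM, with Tat at up to 88.9, Ttr at up to 44.1, and the defining markers Alb and Ahsg at up to 2.13 and 0.641. Of the acinar pancreas markers 2 of 6 were in the table, with a sum of at most 8.27 TPM. Small intestine markers summed to 6.52 to 356 TPM. Ampicillin-IP replicate 6, which had the highest level of 9 members (Cyp3a13 841, Cyp4f14 792, Cyp4b1 484 and Cyp2d26 330 TPM among them), also had the highest Apoa4 (61.9 TPM) and Rbp2 (137 TPM), and whether that library held other tissue was not tested. The columns of 12 libraries (PBS-IP replicates 3 and 4, PBS-IV replicates 3 and 5, Vancomycin-PO replicates 1, 4 and 5, Vancomycin-IP replicates 2, 3 and 4, and Vancomycin-IV replicates 1 and 2) stand after all others in the deposited table. All are PBS or vancomycin libraries. Where leaving them out changed the call of a named member, the value without them is given beside it.

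Posterior Hox genes are transcribed towards the distal end of the gut, and a score for each library was taken as the mean log2(TPM + 1) of Hoxa13, Hoxb13, Hoxd11, Hoxd12 and Hoxd13. It ran from 0.801 to 6.15 with a median of 3.79. The widest gap between neighbouring libraries was 4.25% of that range, so the libraries did not fall into separate clusters. The lowest library of each group lay between 0.801 and 1.97 and the highest between 3.78 and 6.15, and the group means ran from 2.08 ± 1.15 (SD, n = 6) in Mix-PO to 4.47 ± 1.44 (n = 6) in Metronidazole-PO.

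Members followed this score in both directions. With 1 term for each group in limma, so that differences between treatments did not enter, 14 of 34 tested members were higher and 14 lower with a rising score (adjusted p under 0.05), against 25.2% of all tested genes higher and 22.7% lower. The slopes are log2(TPM + 1) per unit of score. Cyp2c65 had the steepest fall, with a slope of -1.47 (SE 0.07, limma adjusted p = 2.15e-30), followed by Cyp4b1 (-1.24, SE 0.08, adjusted p = 5.88e-23) and Cyp2c55 (-1.01, SE 0.10, adjusted p = 4.02e-14). Of all tested genes 0.0293% had a slope at or below that of Cyp2c65. Cyp2c68 rose most steeply (0.93, SE 0.09), then Cyp2d12 (0.80), Cyp2f2 (0.79), Cyp2d13 (0.57), Cyp2d10 (0.54) and Cyp2d9 (0.41). Cyp2d26 (-0.61), Cyp4f14 (-0.34), Cyp2e1 (-0.31), Cyp4f40 (-0.25), Cyp2j6 (-0.20), Cyp2d22 (-0.16) and Cyp4f13 (-0.14) fell less steeply, and Cyp4f18 (0.24), Cyp2c40 (0.24) and Cyp4f16 (0.13) rose less steeply. Cyp3a13 was not called (-0.16, adjusted p = 0.0666), nor were Cyp2j9, Cyp2j13, Cyp2w1, Cyp4f17 and Cyp4v3. Cyp2d34 (0.16, adjusted p = 0.0401) and Cyp2c69 (0.13, adjusted p = 0.0394) lay near the threshold, and their calls were lost in 14 and 13 of the 97 fits that left out 1 library (adjusted p up to 0.0843 and 0.0994). Without the late-column libraries Cyp2c69 was not called (0.10, adjusted p = 0.119). Other Hox scores ended some calls: with Hoxb13 alone that of Cyp4f40 (adjusted p = 0.146), and with the mean of 4 Hoxd genes those of Cyp4f40 (0.186), Cyp4f13 (0.244), Cyp2e1 (0.0615), Cyp2d34 (0.387) and Cyp2c69 (0.808), all as adjusted p.

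The 3 PBS groups give these levels without any antibiotic. In PBS-PO the score was 1.91, 2.10, 5.65, 5.96, 2.55 and 4.85 in replicates 1 to 6. Cyp2c65 was at 243, 33.0, 0.954, 3.74, 67.5 and 2.17 TPM, with replicates 1, 2 and 5, of low score, above the rest. Cyp2c68 was at 13.8, 3.46, 96.0, 151, 21.9 and 52.1 TPM, with the same 3 replicates below the rest. In PBS-IP the score was 5.15, 5.01, 1.36 and 5.26 in replicates 1 to 4, and replicate 3 stood apart from the other 3. Cyp2c65 was at 4.27, 2.96, 245 and 4.04 TPM, and Cyp4b1 at 1.19, 1.91, 82.0 and 1.37, both high in replicate 3 alone. Cyp2c68 was at 121, 160, 2.59 and 160 TPM, Cyp2d12 at 72.3, 52.0, 11.7 and 66.7, and Cyp2f2 at 13.4, 22.6, 0.18 and 20.5, all lowest in replicate 3. In PBS-IV the scores were 1.61, 5.03, 1.10, 3.99 and 4.37, and Cyp2c65 read 171, 4.78, 290, 3.65 and 6.21 TPM, again high in the 2 libraries with low scores. Cyp2c68 read 1.90, 88.7, 3.56, 0.34 and 104 TPM, so replicate 4 was low in both genes at a middling score. Across all groups the lowest score belonged to Mix-IP replicate 5, where Cyp2c55 stood at 4817 TPM, Cyp2c65 at 397 and Cyp2c68 at 3.83. The highest belonged to Neomycin-PO replicate 4, where Cyp2c55 stood at 379 TPM, Cyp2c65 at 3.61 and Cyp2c68 at 141.

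**Figure D2:**
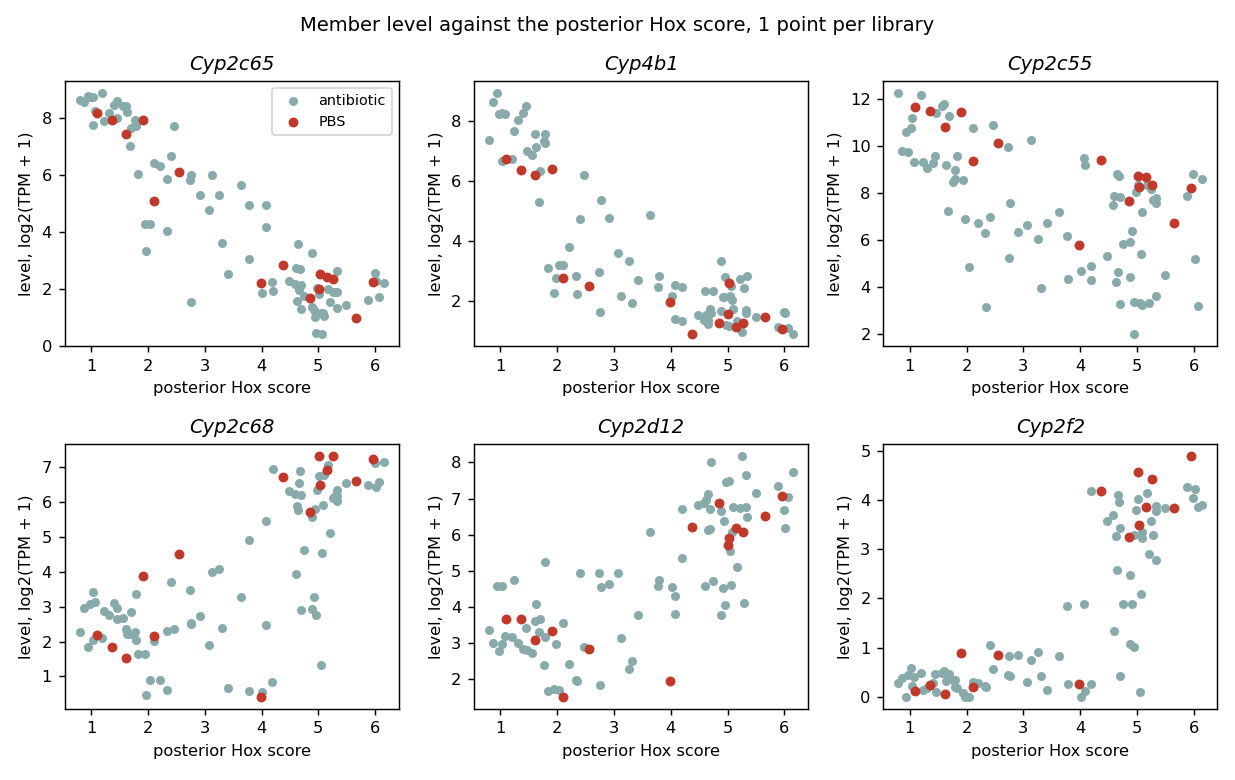
Log2(TPM + 1) of 6 members against the posterior Hox score in 97 libraries, 1 point each, with PBS libraries in red. Cyp2c65, Cyp4b1 and Cyp2c55 run downwards and Cyp2c68, Cyp2d12 and Cyp2f2 upwards, in PBS and antibiotic libraries alike.

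Without a model, 29 of 34 relations between a member and the score passed an adjusted permutation p of 0.05 over the 97 libraries. The adjustment covered these 34 members alone, and the share of all genes that would pass was not computed. In the limma slopes 25.2% of all tested genes were higher and 22.7% lower. Cyp2c65 had a Pearson r of -0.915 and a Spearman rho of -0.872 (permutation p = 1e-05, the smallest that the resamples can give, adjusted p = 2e-05), and r stayed at -0.910 without the 2 libraries farthest from the median score, Mix-IP replicates 4 and 5. The same tests gave r = -0.852 and rho = -0.834 for Cyp4b1 (r = -0.844 without those 2) and r = 0.817 and rho = 0.759 for Cyp2f2 (0.817 without them). Cyp2d12 had r = 0.767 and rho = 0.736, and Cyp2c68 r = 0.726 and rho = 0.692. For Cyp2c55 r was -0.572 and rho -0.575, and r was -0.742 once the group means were taken off. The libraries share one TPM scale, and marker genes of several cell types moved with the score as well. B cell markers had 5 of 5 higher slopes and goblet markers 6 of 7 higher and 1 lower. Of the tested hepatocyte markers 3 of 4 were higher, and adipocyte markers had 5 of 5 lower. Other lists were mixed or mostly not called. Of 9 surface colonocyte markers 3 were higher and 4 lower, and of 8 epithelial markers 1 was higher and 0 lower. Small intestine markers had 2 of 6 lower, fibroblast markers 2 of 6 higher, and smooth muscle markers 1 higher and 1 lower of 15. Their part in the slopes of the members was not tested.

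Members of the same subfamily differed in direction along the gene order. This order holds only the genes of the table and no distances. Members next to each other in it need not be adjacent on the chromosome. In the gene order of RefSeq's GRCm38.p6, Cyp2c55, Cyp2c65 and Cyp2c66 come first on chromosome 19 and all had falling slopes (-0.29 for Cyp2c66), and Cyp2c67, Cyp2c68, Cyp2c40, Cyp2c69 and Cyp2c23 follow and all had rising ones (0.16, 0.93, 0.24, 0.13 and 0.20). Cyp2c23 is the arachidonate epoxygenase of mouse kidney. On chromosome 15 the outer genes Cyp2d22 and Cyp2d26 had falling slopes, and Cyp2d10, Cyp2d9, Cyp2d12, Cyp2d34 and Cyp2d13 between them had rising ones. Cyp2d11 and Cyp2d40, which lie in the same row, were below the filter. In the promoters printed above CAAAGTCCA occurs in Cyp2c65, with a falling slope, as well as in Cyp2c67, Cyp2c68, Cyp2c40 and Cyp2c69, with rising ones.

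**Figure D3:**
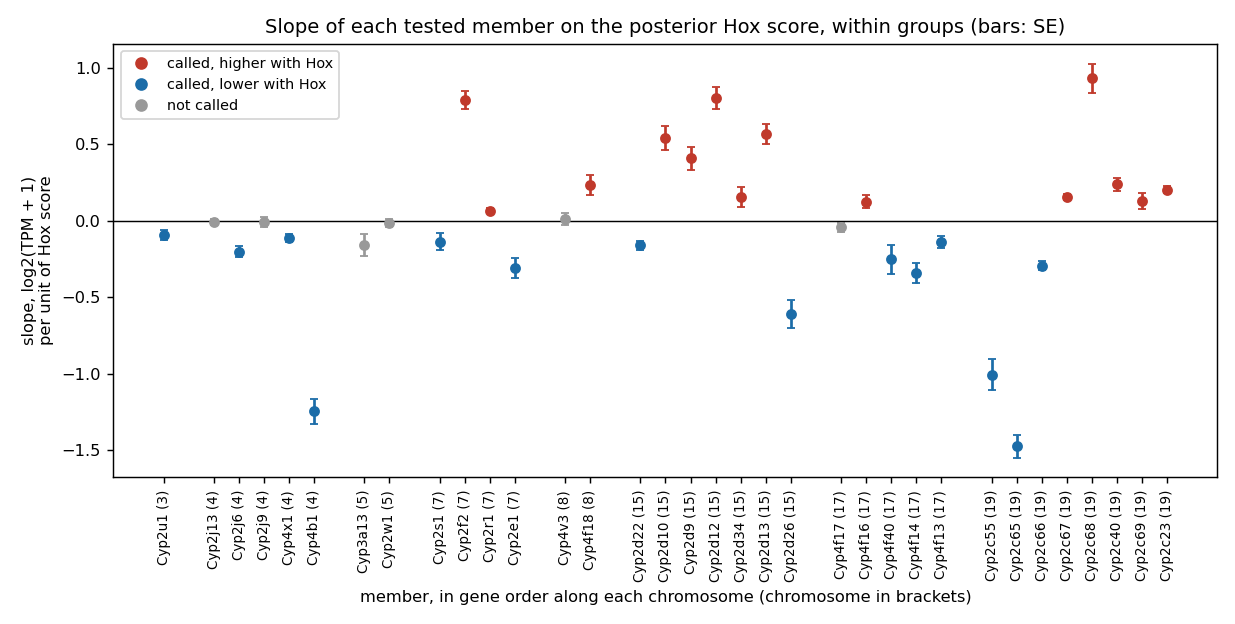
Slope of log2(TPM + 1) on the posterior Hox score, with its SE, for the 34 tested members in gene order on each chromosome; red marks members called higher, blue those called lower and grey those not called. Among the tested Cyp2c members the slopes change from falling (Cyp2c65, -1.47) to rising (Cyp2c68, 0.93) between Cyp2c66 and Cyp2c67. Genes that are not in the table are left out of this order.

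Some members moved together over the 97 libraries, given here as a description because all share the score, the muscle content and the library. Pearson r was 0.950 between Cyp2c68 and Cyp2f2, which lie on different chromosomes, 0.904 between Cyp2c65 and Cyp4b1, and 0.900 between Cyp4f14 and Cyp3a13. It was 0.877 between Cyp2c40 and Cyp2c69, which share much of their sequence, and 0.865 between Cyp3a13 and Cyp2s1. Among the tested genes outside the families, those near to Cyp2c55 in pattern included 4931406C07Rik (r = 0.874), Abhd6 (0.832), 1810065E05Rik (0.828) and Fyb2 (0.808). Cideb (0.942), Slc35f5 (0.937), Ipmk (0.935), Slc9a2 (0.934) and Cxadr (0.930) were nearest to Cyp3a13. Apob (0.918), Mep1a (0.909), Fkbp5 (0.889), Mall (0.888) and Cdhr5 (0.882) were nearest to Cyp4f14.

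Set against PBS of the same route, single antibiotic groups gave few calls in the families. Comparisons of the same route share their PBS libraries, so they are not independent of each other. Of 34 tested members 0 passed limma's adjusted p in 14 of the 15 comparisons. For ampicillin the share of all tested genes called was 0.0702% PO, 0.492% IP and 0.082% IV. An unadjusted limma p under 0.05 was found for 6, 8 and 5 of the 34 members, beside 2709, 1685 and 1075 of all 17083 tested genes. For metronidazole 0% of genes were called PO, 0% IP and 0% IV. There 0, 4 and 1 members had an unadjusted p under 0.05, beside 555, 1221 and 252 of all tested genes. Neomycin had 0.0176%, 0.603% and 0.544% of genes called (PO, IP, IV). At that unadjusted level were 3, 2 and 4 members, beside 914, 993 and 1236 of all tested genes. Vancomycin PO and IV had 0.176% and 0.258% called and 6 and 1 such members, beside 1033 and 2329 such genes. The mix had 0.252%, 0.275% and 0% called (PO, IP, IV) and 6, 8 and 1 such members, beside 1861, 2494 and 956 such genes.

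Members among the 2 with the smallest p of their comparison are given for 4 of these first. After the mix IP, Cyp2c67 was at 0 to 0.412 TPM (median 0.139, n = 6) against 2.38, 1.49, 0.282 and 1.63 in PBS-IP, a log2 difference of -1.001 (SE 0.25) at a limma adjusted p of 0.0507. Cyp2c23 was at -1.16 (adjusted p = 0.0728). Without the late-column libraries both were called (-1.33, adjusted p = 0.0224 and -1.54, adjusted p = 0.0466). Left out one at a time, PBS-IP replicate 3 and Mix-IP replicate 6 brought 5 and 2 members past the threshold in this comparison. The share of all tested genes called in those fits was not kept, so these counts cannot be weighed against it. After vancomycin PO, Cyp2c55 ran from 2.95 to 147 TPM (median 56.4, n = 6) against 104 to 2780 (median 472, n = 6) in PBS-PO, a difference of -4.04 (SE 1.27, adjusted p = 0.277). After the mix PO, Cyp4f14 ran from 222 to 557 TPM (median 434, n = 6) against 67.9 to 199 (median 80.2) in PBS-PO. These groups did not overlap, and the difference of 2.08 (SE 0.64) had an adjusted p of 0.148. After neomycin IV, Cyp3a13 was at 255, 203, 398, 235 and 173 TPM against 138, 120, 172, 7.05 and 149 in PBS-IV, 1.58 higher (SE 0.70, adjusted p = 0.605), and every treated library lay above every PBS library. In PBS-IV the replicate at 7.05 TPM stood far below the other 4. In the same comparison epithelial markers had a median difference of 1.12 and surface colonocyte markers of 0.99, with 0 called in either list. Their part in the Cyp3a13 value was not tested, and the share of all genes with groups that did not overlap was not computed.

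The rest of these pairs of smallest p in the 14 comparisons follow. After ampicillin the difference of Cyp2c69 was -1.32 PO (limma adjusted p = 0.276), -1.64 IP (adjusted p = 0.138) and -1.10 IV (adjusted p = 0.707). Cyp2c67 was at -0.63 PO (adjusted p = 0.276), Cyp2c23 at -0.98 IP (adjusted p = 0.136) and Cyp2c55 at -3.07 IV (adjusted p = 0.682). Without PBS-IP replicate 3 the ampicillin IP comparison had 3 members past the threshold, Cyp2c23, Cyp2c67 and Cyp2c69. The share of all tested genes called in that fit was not kept. After metronidazole Cyp2w1 was at -0.41 and Cyp4f18 at 1.03 PO, Cyp2c40 at -1.10 and Cyp2c23 at -0.71 IP, and Cyp2r1 at -0.39 and Cyp2c23 at -0.45 IV. Neomycin gave 1.56 for Cyp4f18 and -0.56 for Cyp2w1 PO, -1.41 for Cyp2c69 and -0.51 for Cyp2c67 IP, and 1.70 for Cyp4f14 IV. Vancomycin PO gave -0.68 for Cyp2c67, and vancomycin IV gave -0.52 for Cyp2c67 and -0.72 for Cyp4f13. The mix gave -0.80 for Cyp2c23 PO and, IV, -0.56 for Cyp2c67 and -2.60 for Cyp2c55. None of these was called (limma adjusted p from 0.136 to 1).

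Vancomycin IP was the exception, with 6 members lower and 1 higher, against 3.08% of all tested genes lower and 16% higher. Cyp2c69 was at 1.35, 0.0967, 0.295 and 3.49 TPM against 10.9, 14.5, 2.44 and 16.3 in PBS-IP, a log2 difference of -2.38 (SE 0.57) at a limma adjusted p of 0.00751, with 1 treated library above the lowest PBS library. Cyp2c40 was at 0.289, 0, 0.105 and 1.79 TPM against 4.66, 5.36, 0.895 and 6.16 (-1.73, SE 0.49, adjusted p = 0.0168). Cyp2c23 was at 0.564, 0, 0.25 and 0.75 TPM against 3.45, 2.25, 0.472 and 2.38 (-1.10, SE 0.34, adjusted p = 0.024). In both genes PBS-IP replicate 3, the library with the low Hox score, was the lowest of the PBS libraries and overlapped with the treated ones. Cyp2c67 was at 0, 0.0669, 0.207 and 1.23 TPM against 2.38, 1.49, 0.282 and 1.63 (-0.83, SE 0.28, adjusted p = 0.0316).

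Groups that did not overlap were found for the other 3 called members. How many of all tested genes had such groups, here or in the other comparisons, was not computed. Cyp2w1 was at 0.109, 0.284, 0.258 and 0.177 TPM after vancomycin IP against 2.58, 1.15, 0.556 and 0.589 in PBS-IP (-0.79, SE 0.27, adjusted p = 0.0324 in limma). Cyp2j13 was at 0.429, 0.249, 0.465 and 1.15 TPM against 1.84, 1.55, 1.25 and 1.32 (-0.69, SE 0.23, adjusted p = 0.0334). Cyp4f17 was the one that rose, at 11.6, 14.3, 15.8 and 10.2 TPM against 5.79, 5.77, 7.88 and 5.59 (0.94, SE 0.32, adjusted p = 0.0347). The 6 that fell had group means from 0.207 to 1.31 TPM after vancomycin, where a log2(TPM + 1) scale understates a change. Beside these calls, 14 of 15 smooth muscle markers were higher in Vancomycin-IP (median 2.20), 4 of 6 fibroblast markers higher and 3 of 7 goblet markers lower (median -2.77). Averaged over the smooth muscle markers, log2(TPM + 1) was 11.005 ± 0.319 (SD, n = 4) against 8.76 ± 0.470 (n = 4). With the Hox and muscle scores as covariates 0 of the 7 were called. Taking out the late-column libraries leaves 1 Vancomycin-IP library, assumed to vary like the other groups, and 2 of PBS-IP. The differences were then -2.53 for Cyp2c69, -2.22 for Cyp2c40, -1.28 for Cyp2c23 and -1.54 for Cyp2c67. They were -1.32 for Cyp2w1, -0.91 for Cyp2j13 and 0.89 for Cyp4f17. That step removes PBS-IP replicate 3, the lowest PBS-IP library for each member that fell. It also removes Vancomycin-IP replicate 4, the highest treated library for each of them but Cyp2w1. These sizes therefore cannot show whether the differences hold. Leaving out single libraries left 1 call without PBS-IP replicate 1 or Vancomycin-IP replicates 1 or 2, 2 without PBS-IP replicate 2 or Vancomycin-IP replicate 3, and 3 without PBS-IP replicate 4. The share of all tested genes called in those fits was not kept.

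The mean over the 3 routes, each against its own PBS, brings 15 PBS libraries against 15 to 18 treated ones and gave calls for ampicillin, vancomycin and the mix. Ampicillin had 6 members lower and 1 higher (2.75% and 5.13% of all tested genes), vancomycin 6 lower and 1 higher (7.4% and 18.6%), and the mix 4 lower and 1 higher (3.27% and 4.69%). For metronidazole limma called 0 members (0.398% of all genes). At an unadjusted p under 0.05 were 3 members, beside 1620 of all 17083 tested genes. The smallest p in limma belonged to Cyp2r1 (-0.30, adjusted p = 0.358) and Cyp2w1 (-0.38, adjusted p = 0.359). For neomycin limma also called 0 members (2.34% of all genes), and 8 were at that unadjusted level, beside 1995 of all tested genes. There Cyp2c67 was at -0.45 (limma adjusted p = 0.0666) and Cyp2d22 at 0.57 (adjusted p = 0.071). Without the late-column libraries Cyp2d22 was called (0.78, adjusted p = 0.0188). Over the 34 tested members the median difference was 0.02 for ampicillin, -0.41 for vancomycin and -0.08 for the mix, beside 0.07, 0.05 and 0.02 over all tested genes. All 5 of these means use the same 15 PBS libraries, and whether antibiotics differ from each other was not tested.

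Cyp2c55, the member with the highest level, was lower after ampicillin and after vancomycin. After ampicillin it ran from 8.93 to 503 TPM PO (median 21.5), 10.965 to 1532 IP (median 68.3) and 8.87 to 750.0 IV (median 38.7). The PBS libraries ran from 104 to 2780 TPM PO (median 472), read 410, 413, 2867 and 321 IP, and 1750, 305, 3195, 52.9 and 678 IV. Ranges overlapped on every route, and 12 of 18 ampicillin libraries lay below the lowest PBS library of their route. Mean levels were 1007 ± 1094 TPM (SD, n = 15) in PBS and 240 ± 400 (n = 18) after ampicillin, a log2 difference of -3.13 (SE 0.78) at a limma adjusted p of 0.00556. After vancomycin Cyp2c55 read 577, 118, 80.9 and 143 TPM IP and 18.4, 993, 24.2, 54.9 and 758 IV, with the PO libraries given above. There 8 of 15 libraries lay below the lowest PBS library of their route, and the difference was -2.75 (SE 0.82, adjusted p = 0.0112), to 211 ± 307 TPM (n = 15). Without the 12 late-column libraries Cyp2c55 was not called for either drug (-2.63, adjusted p = 0.0916 and -2.41, adjusted p = 0.158). After the mix it was at -1.38 and not called (adjusted p = 0.292).

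The Hox score, with which Cyp2c55 falls steeply, differed between groups, so the comparisons were also fitted with it as a covariate. Cyp2c55 was then called lower after the mix over routes (-2.51, limma adjusted p = 0.00186), after ampicillin PO (-3.73, adjusted p = 0.0367) and IP (-3.59, adjusted p = 0.0423), and after vancomycin PO (-4.61, adjusted p = 0.00129). The mix groups had low scores, 2.08 ± 1.15 (SD, n = 6) PO against 3.84 ± 1.86 (n = 6) in PBS-PO and 2.54 ± 2.08 (n = 6) IP against 4.20 ± 1.89 (n = 4) in PBS-IP. In the list of 5 Hox genes 0 were called in the mix mean (median -1.22). With the muscle score added as well, the difference of Cyp2c55 was -3.03 (adjusted p = 8.98e-06) for ampicillin and -2.31 (adjusted p = 0.00476) for vancomycin.

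Cyp4f14 was higher after ampicillin and after the mix. After ampicillin it ran from 39.3 to 362 TPM PO (median 171), 166 to 792 IP (median 291) and 38.4 to 556 IV (median 220). The PBS libraries ran from 67.9 to 199 PO, read 76.3, 55.0, 147 and 56.6 IP, and 131, 73.2, 205, 5.45 and 122 IV. All 6 ampicillin libraries lay above all PBS libraries IP, and 12 of 18 lay above the highest PBS library of their route. Mean levels were 100.1 ± 54.9 TPM (SD, n = 15) in PBS and 267 ± 193 (n = 18) after ampicillin, a log2 difference of 1.31 (SE 0.39) at a limma adjusted p of 0.0247. It was not called without PBS-IV replicate 4 (1.03, adjusted p = 0.0563) or in a fit of the compared groups alone (adjusted p = 0.052). After the mix Cyp4f14 ran from 185 to 769 TPM IP (median 294) and 35.1 to 304 IV (median 168), with the PO libraries given above. Groups did not overlap PO or IP, 14 of 18 libraries lay above the highest PBS library of their route, and the difference was 1.73 (SE 0.39, adjusted p = 0.00285), to 322 ± 183 TPM. Cyp4f14 falls with the Hox score, and with both scores as covariates its difference was 1.61 for ampicillin (adjusted p = 2.7e-05) and 1.42 for the mix (adjusted p = 0.000387).

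Cyp2c69, Cyp2c40, Cyp2c23 and Cyp2c67, which with Cyp2c68 are the Cyp2c members with rising slopes, were lower after ampicillin, vancomycin and the mix. PBS libraries of Cyp2c69 ran from 1.85 to 9.22 TPM PO (median 5.04), with 10.9, 14.5, 2.44 and 16.3 IP and 2.07, 12.5, 3.59, 0.424 and 15.7 IV. Ampicillin libraries ran from 0.491 to 2.45 TPM PO, 1.23 to 4.38 IP and 0.200 to 3.60 IV, and 17 of 18 lay below the PBS median of their route. Mean levels were 7.52 ± 5.41 TPM (SD, n = 15) in PBS and 1.94 ± 1.14 (n = 18) after ampicillin, a log2 difference of -1.35 (SE 0.29) at a limma adjusted p of 0.00109. For vancomycin it was -1.50 (SE 0.30, adjusted p = 0.000391), with 14 of 15 libraries below the PBS median, and for the mix -1.09 (SE 0.29, adjusted p = 0.0105), with 15 of 18. Every range overlapped with PBS, since PBS libraries such as PBS-IV replicate 4 (0.424 TPM) were low as well.

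The other 3 were at still lower levels, with PBS means of 2.90 ± 2.25 TPM (SD, n = 15) for Cyp2c40, 1.39 ± 1.08 for Cyp2c23 and 1.02 ± 0.801 for Cyp2c67. Cyp2c40 fell by 0.97 after ampicillin (limma adjusted p = 0.00689), by 1.02 after vancomycin (adjusted p = 0.00352) and by 0.94 after the mix (adjusted p = 0.0106). Cyp2c23, the one whose sequence is not shared, fell by 0.73, 0.76 and 0.81 (adjusted p = 0.00325, 0.0018 and 0.00106 in that order), and in the vancomycin case was not called without the late-column libraries (adjusted p = 0.0609). Cyp2c67 fell by 0.56, 0.68 and 0.72 (adjusted p = 0.00512, 0.000716 and 0.000446). With both scores as covariates these 4 genes were called in all 3 comparisons. Cyp2c68, the Cyp2c member with the steepest rise along the Hox score, was at -1.21, -1.69 and -1.44 without covariates and was not called (adjusted p = 0.297, 0.0848 and 0.224).

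The remaining called members were Cyp2w1 and Cyp4f17. Cyp2w1 was at -0.42 after ampicillin (limma adjusted p = 0.0363) and -0.61 after vancomycin (adjusted p = 0.00141), from 0.913 ± 0.735 TPM (SD, n = 15) to 0.381 ± 0.261 and 0.197 ± 0.152, and 15 of 15 vancomycin libraries lay below the PBS median of their route. The first call was lost in 13 of 33 fits without a single library (adjusted p up to 0.119, without PBS-IP replicate 1) and without the late-column libraries (-0.46, adjusted p = 0.0819), and the second in 0 of 30 such fits. With the Hox and muscle scores as covariates Cyp2w1 was called for neither drug (-0.27, adjusted p = 0.0862 and -0.35, adjusted p = 0.0574). Cyp4f17 was at 0.45 after vancomycin (adjusted p = 0.0393), 7.42 ± 2.02 TPM in PBS and 10.5 ± 3.64 (n = 15) after the drug, and lost its call in 15 of 30 fits without a single library (adjusted p up to 0.0771) and without the late-column libraries (0.56, adjusted p = 0.108). With both scores as covariates it was at 0.08 (adjusted p = 0.796). Over the routes, 14 of 15 smooth muscle markers (median 1.21) and 6 of 6 fibroblast markers were higher after vancomycin. There 2 of 7 goblet markers were lower (median -1.36), as was 1 marker each of the epithelium, surface colonocyte and hepatocyte lists. Apart from the fits with the Hox and muscle scores, the part of these markers in the values was not tested. Beside ampicillin 0 of 15 muscle markers were called and 2 of 7 goblet markers were lower (median -1.37). Beside the mix 0 of 15 muscle markers were called and 1 of 7 goblet markers was lower.

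**Figure D4:**
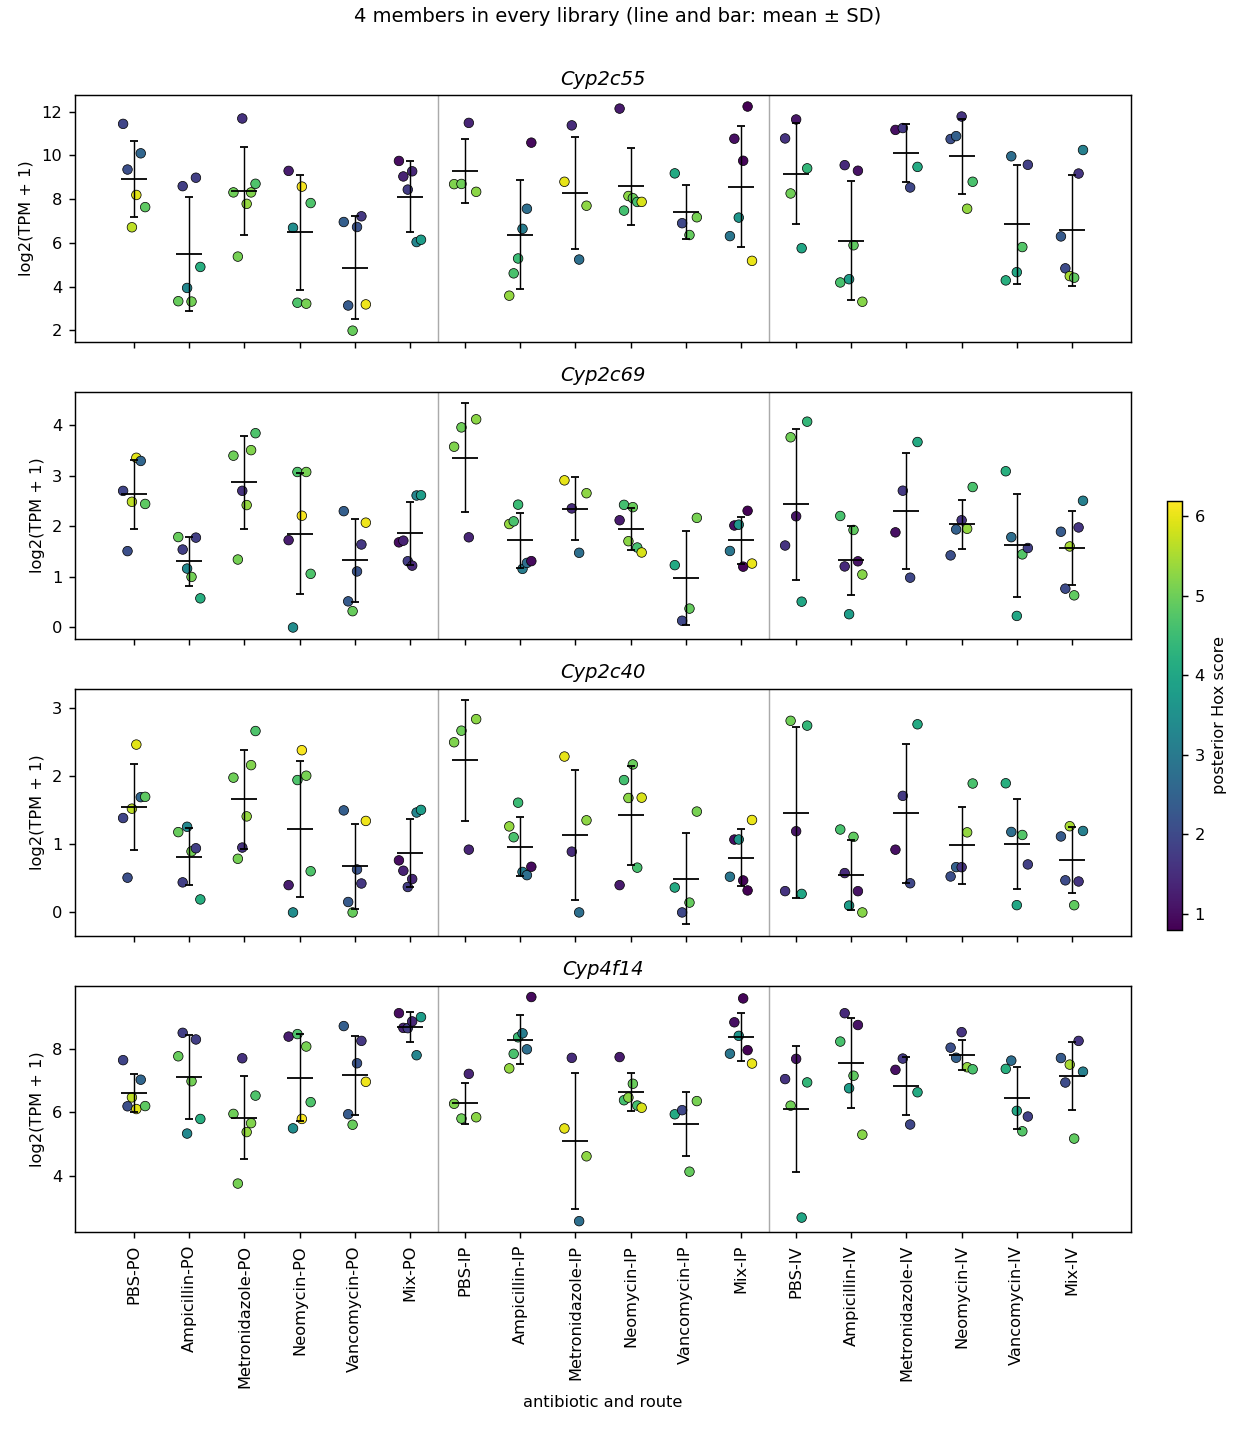
Log2(TPM + 1) of Cyp2c55, Cyp2c69, Cyp2c40 and Cyp4f14 in every library of the 18 groups, 1 point each coloured by posterior Hox score. The mean and SD of each group are on the same log2 scale. Cyp2c55 spans 104 to 2780 TPM in PBS-PO and 2.95 to 147 in Vancomycin-PO, and Cyp4f14 lies at 222 to 557 TPM in Mix-PO, above all PBS-PO libraries.

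Whether an effect depended on the route was tested with an F test over the 3 routes, and limma called 0 members for each antibiotic. The share of all genes called was 0% for ampicillin, 0% for metronidazole, 0.0878% for neomycin, 0% for vancomycin and 0% for the mix. At an unadjusted p under 0.05 there were 0, 0, 1, 0 and 1 members, Cyp4f18 for neomycin and Cyp2d22 for the mix. Of all 17083 tested genes 241, 156, 417, 1127 and 406 were at that level, in the same order. The smallest adjusted p of any member was 0.632, for vancomycin.

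**Figure D5:**
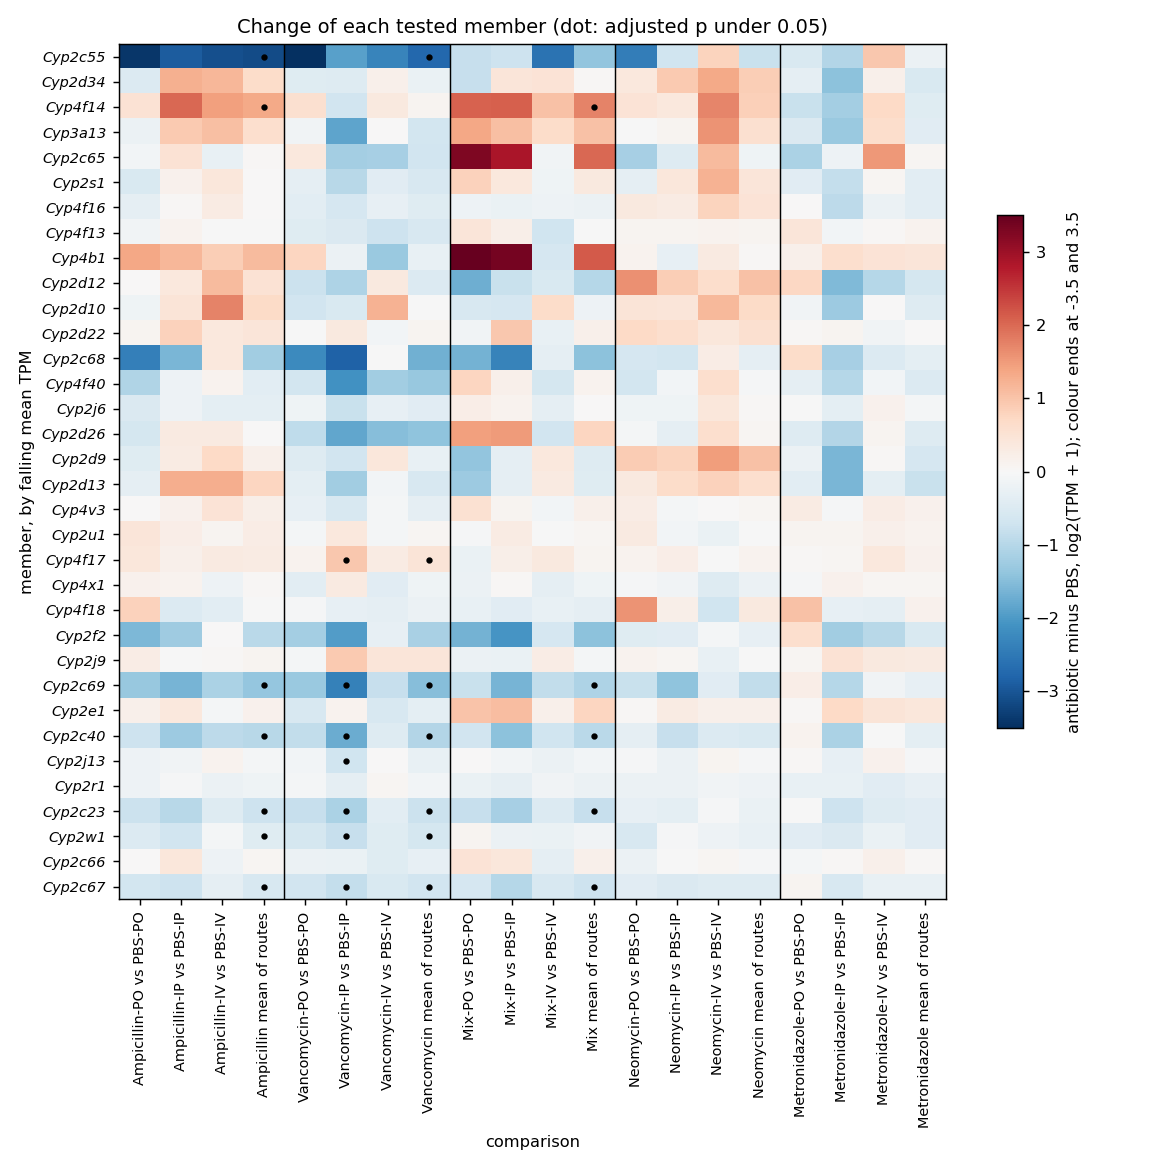
Difference in log2(TPM + 1) from PBS for the 34 tested members (rows) in 15 comparisons by route and 5 means over routes (columns), with colour ends at ±3.5 and a dot where the limma adjusted p is under 0.05. Dots stand at Vancomycin-IP and in the ampicillin, vancomycin and mix means, mostly for Cyp2c members.

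The partners of these enzymes changed in few places. Of all tested genes 5.13% were higher and 2.75% lower after ampicillin, 18.6% and 7.4% after vancomycin, and 4.69% and 3.27% after the mix, and 2.34% were called in either direction after neomycin and 0.398% after metronidazole. Of 12 electron donors and heme synthesis genes, 1 was lower over routes after ampicillin (Alad, an enzyme of heme synthesis, -0.54, limma adjusted p = 0.0414) and 1 after vancomycin (Alad, -0.52, adjusted p = 0.0308), and 0 after the other treatments. Of 20 nuclear receptors and factors known to control these families, 2 were lower after ampicillin, the clock-output factors Dbp (-2.69, adjusted p = 1.01e-11) and Tef (-1.20, adjusted p = 0.000332), which drive Cyp genes in mouse liver. After vancomycin 4 were lower, Dbp (-2.15), Tef (-0.99), Nr5a2 (-0.99) and Ppard (-0.52). After neomycin 1 was lower (Dbp), after the mix 1 was higher (Rxra, 0.53), and after metronidazole 0 were called. Of 20 fatty acid and arachidonate enzymes, ampicillin changed 0. Vancomycin had 2 higher, the cyclooxygenases Ptgs2 (1.51) and Ptgs1 (1.26), and 1 lower, Alox12 (-0.26), and the mix had 1 higher and 2 lower. Of 10 tested genes of other P450 families, 2 were higher after ampicillin, the sterol 27-hydroxylase Cyp27a1 (0.70) and the retinoate hydroxylase Cyp26b1 (0.87), and 1 lower, the sterol demethylase Cyp51 (-0.88), and 1 was higher after vancomycin, Cyp20a1 (0.49).

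Some partners also ran along the Hox score, on which 25.2% of all tested genes rose and 22.7% fell. Por fell with it (-0.19, limma adjusted p = 7.2e-10), as did Alas1, the first enzyme of heme synthesis (-0.22), and of the 12 donors and heme genes 3 rose and 3 fell, shares near those of all genes. Of the 20 factors 2 rose, with Nr1i3 at 0.41, and 10 fell, with Ppara at -0.56, Pparg at -0.56 and Rxra at -0.24. Hnf4a, at a mean of 394 TPM, had a slope of 0.00 (adjusted p = 0.95). Of the fatty acid and arachidonate enzymes 4 rose and 13 fell, among them the fatty acid binding protein Fabp2 (-1.07).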

How the data were processed

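RNA from the whole colon was measured in 97 libraries. The authors deposited TPM per gene. Trimming used cutadapt 3.5 and Trim Galore 0.6.2 and quantification used Salmon, on GRCm39, per the submitters' processing notes. No version of Salmon and no use of the strand is stated there. The values were used as log2(TPM + 1), which understates changes of low genes. Genes with 1 TPM or more in 4 or more libraries were tested (17083 of 20457), in 1 model of the 18 groups in limma 3.58.1 (trend, robust; R 4.3.3), adjusted by Benjamini-Hochberg within each comparison over all tested genes and called at an adjusted p under 0.05. Correlations used 1e+05 permutations, two-sided. Promoters and gene order came from RefSeq for GRCm38.p6, and transcripts from GENCODE for GRCm38. Only sequences, their positions and gene order were used, and 43 of 44 members had a transcript entry.

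The members, gene lists, tests and alternatives were chosen with earlier results of these data known. Members described by level had a mean of 10 TPM or more. Named in each comparison were up to 8 called members in each direction, or the 2 with the smallest p where fewer than 2 were called. For the Hox score up to 10 called members in each direction with a mean of 1 TPM or more were named; Cyp2c66, Cyp2c67, Cyp2c23, Cyp4f16, the 6 without a call and uncalled Cyp2c55 and Cyp2c68 were added after their values were seen. Alternatives were another pseudocount, no filter, quantile normalization, array weights, a replicate block, the compared groups alone, covariates, other Hox scores, no late-column libraries, and each library left out. The script was checked on simulated data. No 2 libraries held identical values, and TPM keep no depth, so no counting interval is given. Some genes outside the families are not reported here.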

Additional observations from a re-analysis of the deposited data

Results flagged for a closer look

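Of 180 sets of values of 1 gene or score within 1 group of 4 to 6 libraries, 16 had a library far from the others, against 9 that chance would give at 1 in 20. In 2 of them a high Cyp2c55 went with a low posterior Hox score in the same library. Neomycin-IP replicate 1 had Cyp2c55 at 4512 TPM, against 177 to 281 in the other 5, and a score of 1.197. PBS-IP replicate 3 had 2867 TPM, against 321 to 413 in the other 3, a score of 1.358 and Cyp4f17 at 7.879 TPM. The score was also low in Metronidazole-PO replicate 3 (1.563).

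Cyp2c23 stood high in Ampicillin-PO replicate 1 (0.8057 TPM), Mix-IP replicate 6 (1.02), Mix-IV replicate 3 (1.109) and Vancomycin-PO replicate 6 (1.049). Cyp2c67 was high in Mix-IV replicate 3 as well (0.4672 TPM). Cyp2j13 was low in Mix-PO replicate 6 (0.4336 TPM) and PBS-PO replicate 2 (0.3081). Cyp4f14 was lowest in Mix-PO replicate 5 (221.9 TPM). Cyp4f17 was high in Mix-IV replicate 2 (15.33 TPM) and low in Vancomycin-IV replicate 1 (2.835).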

How the results depend on the processing

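Of 803 recomputed counts of called members 746 stayed within 1.5 times the reported count and 57 moved; of 4148 recomputed values of named members 3967 kept their direction and side of the threshold, 123 lost the call, 58 gained it and 0 reversed. The causes were not tested. Apart from the Hox covariate, the share of all tested genes called in these fits was not kept, so the counts cannot be weighed against it. A pseudocount of 10 gave 1 call for Ampicillin-IP, 3 for Mix-IP and 2 for the neomycin mean, and no filter 1 for Mix-IP. Array weights gave 4 for Ampicillin-PO, 10 for Ampicillin-IP, 4 for Neomycin-IP, 18 for Vancomycin-IP, 9 for Vancomycin-IV, 7 for Mix-PO, 17 for Mix-IP, 5, 19 and 15 for the neomycin, vancomycin and mix means, and 3 and 4 for the vancomycin and mix F tests. The replicate block gave 2 for Mix-IP and 26 slopes, and moved no other count past 1.5 times. Libraries share only a number: of 74 same-numbered pairs 30 correlated over 0.1 (range -0.70 to 0.84), and in 0 comparisons did every pair. The compared groups alone gave 13 for Vancomycin-IP and 1 for Mix-PO. The Hox covariate gave 1 for Ampicillin-PO, 2 for Ampicillin-IP, 1 for Vancomycin-PO, 2 for the neomycin mean and 12 for the vancomycin mean. In the same order 0.164%, 0.978%, 0.421%, 3.42% and 31% of all tested genes were called. With muscle added to the Hox covariate there were 4 for Ampicillin-IP, 1 for Vancomycin-PO, 0 for Vancomycin-IP, 2 for Mix-IP, 14 for the ampicillin mean and 5 for the neomycin mean. Without the 12 late-column libraries there were 0 for Vancomycin-IP, 2 for Mix-IP, 1 for the neomycin mean and 4 for the vancomycin mean. Quantile normalization moved the median of all genes by over 0.1 in Vancomycin-IP only (0.11 to -0.06).

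Leaving out 1 library gave 0 to 3 calls for Ampicillin-IP, 0 to 5 for Mix-IP, 1 to 8 for Vancomycin-IP, 6 to 8 for the ampicillin mean, 5 to 7 for the mix mean, 26 to 29 slopes, and 0 to 0 elsewhere. The neomycin mean had 0 to 3 (3 without PBS-IP replicate 3, 2 without Neomycin-IV 5, Neomycin-PO 5 or PBS-IV 4, and 1 without Neomycin-IP 2 or 6, Neomycin-PO 3 or 4, PBS-IV 1 or 3 or PBS-PO 2). The vancomycin mean had 6 to 14 (14 without PBS-IV replicate 4, 11 without PBS-PO 2 or Vancomycin-IV 1). The depth is unknown, so its limit on the members under 1 TPM cannot be given.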
